A study of Mus musculus with 31 samples.

Results

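The response of RAGE null alveolar macrophages (AM) to 4 months of cigarette smoke (CS) was taken from 8 of the 31 libraries of the series, 4 from CS-exposed and 4 from control RAGE null mice, and all genes of the deposited table entered it. The CS-exposed mice breathed machine-generated smoke of research cigarettes over 4 months, and the control mice breathed room air for the same time. Both groups were young adult male mice at the start, carried a homozygous null mutation of the RAGE gene on a C57BL/6 background (strain label C57BL6), and came from 1 colony. The same exposure in 8 libraries of C57BL/6 wild-type (WT) mice, and 7 days of CS in 8 libraries of RAGE null mice, serve below for comparison. AM were the cells recovered by bronchoalveolar lavage and pelleted without sorting, so the libraries hold RNA of any other cell in the lavage fluid. RNA was selected by oligo dT and sequenced, and the authors counted reads per gene.

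AM are the resident phagocytes of the air spaces, which take up inhaled particles and surfactant lipid and degrade them in lysosomes. They also carry the innate receptors that start cytokine production in the lung. RAGE is a membrane receptor for advanced glycation end products and for S100 and HMGB proteins, and one of the pathways it feeds is NF-κB, whose dimers bind κB sites in the promoters of cytokine and chemokine genes. The question of the comparison was what prolonged CS does to AM that carry the null mutation.

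Among the genes whose promoters carry a κB site, 3 neighbouring chemokines on chromosome 5 were lower in CS-exposed AM (values below), and their promoters are shown because all of them hold the same 11 bases. The stretches are 60 bases long, read 5′ to 3′ on the strand of the gene from the RefSeq promoters of GRCm38.p6 (mm10), with capitals on the κB match.
Cxcl1 (chr5:90891150-90891209, + strand): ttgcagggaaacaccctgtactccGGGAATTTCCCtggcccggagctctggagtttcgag
Cxcl2 (chr5:90903778-90903837, + strand): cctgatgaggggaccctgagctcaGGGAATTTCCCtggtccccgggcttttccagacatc
Cxcl3 (chr5:90786004-90786063, + strand): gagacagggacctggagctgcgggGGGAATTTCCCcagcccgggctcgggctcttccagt
Nfkbia (chr12:55492648-55492707, - strand): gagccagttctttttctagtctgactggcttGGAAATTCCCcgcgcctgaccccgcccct
In Cxcl1, Cxcl2 and Cxcl3 the capitals hold 2 overlapping matches, and the match ends 60, 86 and 62 bases before the RefSeq start.

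Clock genes follow because 3 of them differed in response from that of WT AM. The E-box CACGTG, the site of the CLOCK and BMAL1 dimer, is in capitals in 3 members that were higher after CS. Of those shown, only Cry1 is among the clock genes that differed from WT. Of 15 clock genes with a promoter, 5 held an E-box, of which 3 were called higher and 0 lower. Per2, Per3, Cry2 and Dbp were also higher and are not among the 5 with a match. It lies 54, 121 and 147 bases before a start of transcription in RefSeq. In the deposited table, whose gene models reach further upstream, the stretch of Tef lies inside the gene (from 81802421) and that of Bhlhe41 overlaps its end (145865558).
Cry1 (chr10:85185082-85185141, - strand): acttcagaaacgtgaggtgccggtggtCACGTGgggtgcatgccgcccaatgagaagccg
Tef (chr15:81802519-81802578, + strand): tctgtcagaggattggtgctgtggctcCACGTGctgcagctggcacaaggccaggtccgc
Bhlhe41 (chr6:145865541-145865600, - strand): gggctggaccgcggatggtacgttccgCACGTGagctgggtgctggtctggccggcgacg
Both motifs were searched on both strands in the 250 bases before each start. A κB match was found in 3.9% of all 32851 promoters and in 5.3% of the genes tested that have a promoter. Among the called genes it was found in 7.06% of those higher and in 8.53% of those lower. An E-box was found in 6.02% of all promoters, in 10.1% of the genes tested, in 10.6% of those called higher and in 9.24% of those called lower. These matches are letters in a window and do not show that a factor was bound.

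Ager, the gene of RAGE, was low in all libraries and higher in those labelled RAGE null. Its levels in CPM, that is, counts divided by the scaled size of the library, were 3.17, 4.03, 3.27 and 3.42 in CS-exposed RAGE null AM and 2.79, 3.80, 2.63 and 3.71 in control RAGE null AM. The 8 RAGE null libraries averaged 3.35 ± 0.489 CPM and the 8 WT libraries of 4 months 1.56 ± 0.535 CPM (SD, 2-sided exact permutation test, p = 0.000155). The ranges of the genotypes, 2.63 to 4.03 CPM and 0.644 to 2.44 CPM, did not overlap. Counts are given per gene (ENSMUSG00000015452, chromosome 17 from 34597862 to 34600934 of mm10) and do not show whether reads came from the deleted part, so Ager goes against what the label would give and does not check it. RAGE null stands below for the label.

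The libraries carried the marks of AM. Chil3, a chitinase-like protein of AM, had 15716 to 20874 CPM in CS-exposed and 13343 to 15655 CPM in control AM. Itgax, the integrin CD11c, had 2107 to 2317 CPM and 1709 to 1894 CPM in the same order of groups, and Pparg, the nuclear receptor that shapes AM, 213 to 247 CPM and 184 to 222 CPM. The 28 AM markers summed to 41054 to 47120 CPM in CS-exposed and 37757 to 41788 CPM in control AM. Total counts were 14966896 to 19214827 in the CS-exposed and 13458715 to 19674017 in the control libraries. In a principal component analysis of the 8 libraries the first component, with 45.0% of the variance, put all CS-exposed libraries at -31.4 to -19.6 and all control libraries at 16.5 to 34.7. Control replicate 2 stood apart at -39.1 on the second component (21.1%), with the other 7 libraries at -10.6 to 22.1.

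Of 13045 genes tested, 949 (7.27%) were called in CS-exposed against control RAGE null AM, 371 higher (2.84%) and 578 lower (4.43%). Calls needed an adjusted p under 0.05 from edgeR's quasi-likelihood test together with a change of 1.5-fold or more. The median log2 fold change was 0.90 over the genes called higher, -1.29 over those called lower and -0.01 over all genes tested. In 286 of the genes called higher and 375 of those called lower the 4 CS-exposed libraries did not overlap the 4 control libraries, and over all genes tested 8.09% did not overlap upward and 8.51% downward. The counts moved with single libraries: 1294 genes were called without control replicate 2, 1185 without CS-exposed replicate 0 and 746 without control replicate 3. A fit of the 8 libraries alone called 596, 259 higher and 337 lower. In total 202 of the called genes overlap another listed gene, and since strand was not used in counting as far as the sources tell, reads of such pairs cannot be told apart.

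**Figure D1:**
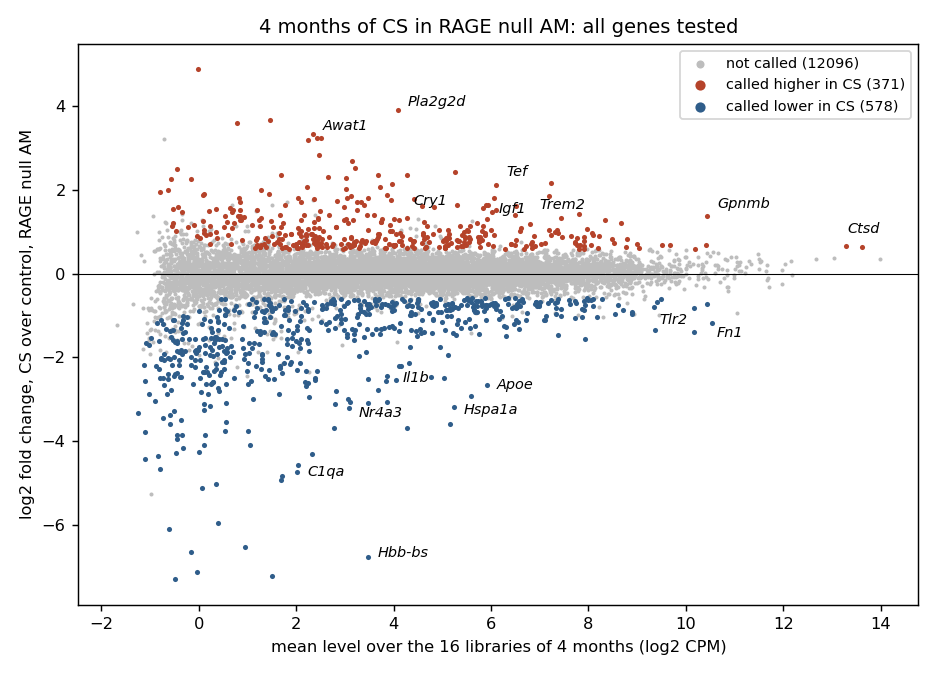
Log2 fold change of CS over control in RAGE null AM at 4 months (y) against the mean log2 CPM over 16 libraries (x), 1 point per gene tested. The 371 genes called higher are red, the 578 called lower blue, and named genes are labelled; the largest decreases lie among genes of low level.

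Lysosomal genes were among those that rose. Of 45 lysosomal genes tested, 7 were called higher and none lower (0 lower by DESeq2 and 1 lower at an unadjusted p under 0.05), with a median log2 fold change of 0.28. Gpnmb, a glycoprotein of the phagosome membrane, had 1604, 1813, 1987 and 2444 CPM in CS-exposed AM, against 827, 903, 619.7 and 692 CPM in control AM. Every CS-exposed library was above every control library (log2 fold change 1.37, SE 0.16, adjusted p = 5.9e-05 from edgeR). Acp5, the tartrate-resistant acid phosphatase, averaged 438 ± 43.3 CPM in CS-exposed and 247 ± 23.3 CPM in control AM (SD, n = 4 each). Ctsd, the main aspartic protease of lysosomes, had 14178 to 16654 CPM in CS-exposed and 9086 to 10579.7 CPM in control AM, a log2 fold change of 0.63. Psap, the precursor of the saposins that assist lipid hydrolases, rose by 0.65 and Cd63, a membrane protein of late endosomes, by 1.43 on the log2 scale. The other members called higher were Ctsk, a collagen-degrading cathepsin, and Tfeb, a transcription factor of lysosomal genes. Their groups overlapped. The call of Ctsk was lost without control replicate 2 or 3 or CS-exposed replicate 1, 2 or 3, and that of Tfeb without control replicate 1 or 3 or CS-exposed replicate 1, 2 or 3.

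Trem2, a lipid-sensing receptor of macrophages, had 89.7, 147, 149.9 and 170.4 CPM in CS-exposed AM, against 65.7, 65.7, 51.1 and 61.7 CPM in control AM. CS-exposed replicate 0 was the lowest of its group but still above all controls, and the log2 fold change was 1.19 (SE 0.17, adjusted p = 0.000349 from edgeR). Of 29 scavenger and C-type lectin receptors Trem2 was the 1 called higher, and 7 were called lower (Stab1, Clec4a1, Cd209a, Colec12, Timd4, Trem1 and Trem3). Without CS-exposed replicate 2 the count lower was 4, and without CS-exposed replicate 0 it was 5, with 2 higher. Plin4, a coat protein of lipid droplets, averaged 3.63 ± 1.07 CPM in CS-exposed and 0.315 ± 0.310 CPM in control AM. Awat1, an acyltransferase that makes wax esters, averaged 4.95 ± 2.11 CPM and 0.479 ± 0.128 CPM in the same groups (SD, n = 4 each). Their log2 fold changes were 3.66 and 3.33, and Plin4 overlaps another listed gene. Above a mean log2 CPM of 1, the largest increase was that of Pla2g2d, a secreted phospholipase A2, with 13.7, 25.4, 43.5 and 30.4 CPM in CS-exposed AM and 4.19, 4.31, 0 and 0.0553 CPM in control AM. The controls split into a pair near 4 CPM and a pair near or at 0, and all lay below the CS-exposed libraries (log2 fold change 3.89, SE 0.67, adjusted p = 0.00118 from edgeR). Of 33 genes of fatty acid uptake, storage and oxidation, 2 rose and 3 fell, with a median of 0.08. These were 6.06% and 9.09% of the list, against 2.84% and 4.43% of all genes. The counts were 5 and 4 without control replicate 2 and 4 and 2 without CS-exposed replicate 0.

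Some genes of cholesterol efflux and fatty acid desaturation fell, while the desaturase Fads1 was called higher. Apoe, the apolipoprotein that carries effluxed cholesterol, had 16.3, 11.2, 6.54 and 14.5 CPM in CS-exposed AM, against 104, 56.6, 58.3 and 85.5 CPM in control AM. The groups were far apart (log2 fold change -2.66, SE 0.29, adjusted p = 3.1e-05 from edgeR). Abca1, the transporter that exports cholesterol, averaged 85.5 ± 27.4 CPM in CS-exposed and 253 ± 36.8 CPM in control AM (SD, n = 4 each), a log2 fold change of -1.56. Of 15 genes of liver X receptors and their targets, 5 fell, with a median of -0.22. Beside Apoe and Abca1 these were the desaturases Scd1 (-1.26) and Scd2 (-1.01), both with overlap between groups, and the GTPase Arl4c. The list summed to 4777 to 6792 CPM in CS-exposed and 5880 to 7358 CPM in control AM, which overlap. Elovl6, an elongase of saturated fatty acids, fell by 2.20 on the log2 scale. Nr1h3, which encodes liver X receptor alpha, had a log2 fold change of 0.22 and was not called. Of 23 genes of cholesterol synthesis 1, Acat2, was called lower (4.35%, near the 4.43% of all genes).

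The complement component C1q fell to trace levels. Its 3 chains lie side by side on chromosome 4 (C1qb from 136880129, C1qc from 136889804 and C1qa from 136895917 to 136898803 of mm10). C1qa had 0.337, 0.262, 0.467 and 0.197 CPM in CS-exposed AM, against 19.0, 7.31, 2.18 and 6.47 CPM in control AM. All controls were above all CS-exposed libraries, and control replicate 2 was the lowest control for each chain. The log2 fold changes of C1qa, C1qb and C1qc were -4.73 (SE 0.61), -4.91 (SE 0.62) and -4.83 (SE 0.70). C3, the central component of complement, averaged 220.3 ± 30.9 CPM in CS-exposed and 430.2 ± 109.8 CPM in control AM, a log2 fold change of -0.97 (adjusted p = 0.000681 from edgeR). Of 18 complement genes, 7 fell and 1, C2, rose, whose call was lost without CS-exposed replicate 2. The list as a whole did not fall. It summed to 6073 to 6481 CPM in CS-exposed and 5550 to 5791 CPM in control AM, higher after CS without overlap.

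C1q and Apoe are also markers of monocytes and interstitial macrophages, and other marker lists moved with them. Of 20 markers of monocytes and interstitial macrophages, 8 fell (median -0.66), and the list summed to 754 to 938 CPM in CS-exposed and 1034 to 1597 CPM in control AM. Of 20 dendritic cell markers, 12 fell (median -1.62), at summed levels of 465 to 499 CPM and 481 to 548 CPM. Ccr7, the chemokine receptor of migrating dendritic cells, averaged 1.07 ± 0.312 CPM in CS-exposed and 9.08 ± 3.21 CPM in control AM (SD, n = 4 each), with no overlap. Of 9 markers of T, NK and B cells, 5 fell, while the list summed to 239 to 298 CPM in CS-exposed and 263 to 303 CPM in control AM. Of 5 neutrophil markers 2 fell (Csf3r and Mmp8) and 1 rose (Cxcr2), and the list summed to 96.9 to 125.5 CPM in CS-exposed and 130.5 to 204.8 CPM in control AM, without overlap. The count lower was 1 without control replicate 1 or 3 or CS-exposed replicate 1 or 2, and without control replicate 0 there were 2 higher. Cd3e, a chain of the T cell receptor complex, had 0, 0, 0 and 1 counts in CS-exposed and 10, 11, 5 and 4 counts in control libraries, and Cd8b1 and Igkc were at 0 in all CS-exposed libraries. Of the markers in the table, which holds 23 of 28 listed for monocytes and interstitial macrophages, 21 of 21 for dendritic cells, 17 of 31 for lymphocytes and 9 of 23 for neutrophils, none was at 0 in all 8 libraries. Fewer cells of a type and less RNA per cell cannot be told apart in bulk libraries. The part of these cells in the falls of C1q, Apoe and the called genes of antigen presentation and chemokines was not tested.

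**Figure D2:**
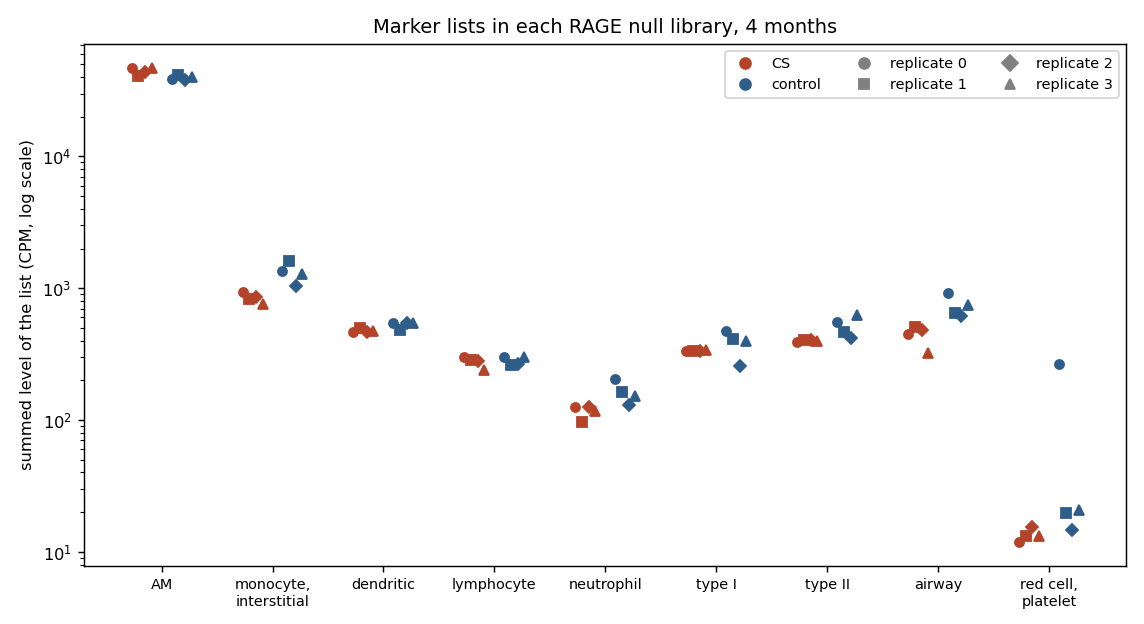
Summed CPM (log scale) of 9 marker lists in each RAGE null library of 4 months, CS left (red) and control right (blue), 1 symbol per replicate. AM markers lie at 37757 to 47120 CPM in both groups, the monocyte and interstitial list does not overlap between groups, and control replicate 0 stands out for red cell genes.

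Some genes of antigen presentation fell. Of 14 genes of class II presentation and costimulation, 6 were called lower (H2-DMa, H2-DMb2, H2-Ob, Cd86, Cd80 and Cd40). The median was -0.85, and 11 were called lower without control replicate 2. The class II chains H2-Aa, H2-Ab1 and H2-Eb1 and the invariant chain Cd74 were not called with all libraries in the fit. Ctss, a cathepsin of the list, was higher without overlap (log2 fold change 0.30), under the fold threshold. The list summed to 7021 to 8259 CPM in CS-exposed and 5707 to 11189 CPM in control AM, which overlap. H2-DMa, which loads peptides on class II, averaged 210.2 ± 24.3 CPM in CS-exposed and 324 ± 15.8 CPM in control AM (SD, n = 4 each), with a log2 fold change of -0.63 that came to -0.54, under the fold threshold, without CS-exposed replicate 3. Cd80, a costimulatory ligand for T cells, had 24.4, 18.6, 21.4 and 16.9 CPM in CS-exposed AM, against 35.8, 45.5, 24.4 and 32.5 CPM in control AM, a log2 fold change of -0.76 (adjusted p = 0.00235 from edgeR). Siglecf, the sialic acid receptor that defines AM, was also lower: 293, 333, 303 and 298 CPM in CS-exposed AM, against 467, 473, 662 and 652 CPM in control AM. Of 28 AM markers, 4 rose (Krt19, Ctsk, Bhlhe41 and Tgfbr2) and 2 fell (Siglecf and Fabp1), with a median of 0.04. These were 14.3% and 7.14% of the list, against 2.84% and 4.43% of all genes. Without control replicate 2 or 3 or CS-exposed replicate 0, 1 or 3, 1 AM marker was called lower.

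Many chemokine and cytokine genes fell. Of 18 chemokines tested, 9 were called lower (median -1.52), and of 16 cytokines 6 were (median -0.71). In both lists no member was called higher, by DESeq2 either, and none was higher at an unadjusted p under 0.05. The chemokine list summed to 3576 to 6382 CPM in CS-exposed and 3298 to 5596 CPM in control AM, which overlap. With at least 20 counts required in every sample 2 were called lower, at a median of -0.37. The cytokine list summed to 427 to 528 CPM in CS-exposed and 595 to 821 CPM in control AM, without overlap. That sum includes Il1rn, the gene of the interleukin 1 receptor antagonist, so its fall is not one of inflammatory members alone. Il1rn had 133, 170, 155 and 134 CPM in CS-exposed AM, against 183, 195, 280 and 270 CPM in control AM. It was called lower without overlap (log2 fold change -0.65, adjusted p = 0.00252 from edgeR). Il1b, the gene of interleukin 1 beta, had 24.3, 9.11, 11.73 and 6.64 CPM in CS-exposed AM, against 92.0, 41.4, 26.6 and 129 CPM in control AM. The controls spread widely, yet the lowest control was above the highest CS-exposed library (log2 fold change -2.49, SE 0.47, adjusted p = 0.00225 from edgeR). Il12b, the p40 chain of interleukin heterodimers, averaged 0.136 ± 0.0290 CPM in CS-exposed and 1.17 ± 0.464 CPM in control AM. Tnf was not called: it had 8.89, 13.5, 9.45 and 6.90 CPM in CS-exposed AM, against 13.8, 8.04, 27.8 and 13.1 CPM in control AM, and the groups overlapped (log2 fold change -0.71, SE 0.35, adjusted p = 0.169 from edgeR).

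The neutrophil chemokines Cxcl1, Cxcl2 and Cxcl3, whose promoters are printed above, moved together. Cxcl1 had 3.03, 2.25, 1.05 and 1.18 CPM in CS-exposed AM, against 6.91, 3.29, 7.39 and 4.48 CPM in control AM. Cxcl2 had 14.6, 10.996, 7.94 and 5.91 CPM in CS-exposed AM, against 34.1, 18.4, 52.7 and 26.4 CPM in control AM. Cxcl3 had 2.56, 1.83, 1.63 and 0.657 CPM in CS-exposed AM, against 5.95, 6.36, 20.6 and 4.37 CPM in control AM. None of the 3 overlapped between groups, with log2 fold changes of -1.56 (SE 0.38), -1.75 (SE 0.46) and -2.50 (SE 0.61). The call of Cxcl2 was lost without CS-exposed replicate 3 (adjusted p = 0.0517 from edgeR). Among 14 chemokines with a promoter in the table, a κB match was found in 5, of which 3 were called lower. Over the whole list 9 of 18 chemokines were called lower. In the list of NF-κB subunits and feedback genes, 11 of 22 with a promoter held a match, of which 2 were called lower. Ccl17, a ligand of CCR4 that dendritic cells also make, averaged 0.571 ± 0.178 CPM in CS-exposed and 3.62 ± 0.978 CPM in control AM (SD, n = 4 each).

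Some receptors and feedback genes of the NF-κB pathway fell by smaller amounts. Tlr2, the receptor for bacterial lipoproteins, had 553, 485, 465 and 345 CPM in CS-exposed AM, against 836, 720.4, 719 and 936 CPM in control AM (log2 fold change -0.80, SE 0.14, adjusted p = 0.00126 from edgeR). Tlr4, the receptor for lipopolysaccharide, averaged 177 ± 33.0 CPM in CS-exposed and 287 ± 36.0 CPM in control AM (SD, n = 4 each), a log2 fold change of -0.70. Both were without overlap between groups. Of 22 Toll-like receptors and adaptors, 3 fell (Tlr2, Tlr4 and the coreceptor Cd14) and 1, Tlr13, rose, with a median of -0.09. These were 13.6% and 4.55% of the list, against 4.43% and 2.84% of all genes. Of 26 NF-κB subunits and feedback genes, 5 were called lower, with a median of -0.34. The list summed to 2599 to 2927 CPM in CS-exposed and 2520 to 2986 CPM in control AM, which overlap. Tnfaip3, the ubiquitin-editing inhibitor A20, averaged 106 ± 15.6 CPM in CS-exposed and 212 ± 32.3 CPM in control AM (log2 fold change -1.002, adjusted p = 0.00147 from edgeR). Nfkbia, the inhibitor that holds NF-κB in the cytosol, was near the fold threshold at -0.60, and its call was lost without control replicate 1 or 3 or CS-exposed replicate 1 or 3. The subunit Nfkb1 was at -0.38 without overlap, under the fold threshold. Leaving out control replicate 3 or CS-exposed replicate 1 or 3 left 2 members called, and leaving out CS-exposed replicate 2 or control replicate 0 left 3. Without control replicate 2, 1 member was called higher. Of 26 interferon-stimulated genes 1, Oas2, was called lower (3.85%, near the 4.43% of all genes), at a median of -0.35. That call was lost without control replicate 3 or CS-exposed replicate 1 or 2. Without CS-exposed replicate 3, 4 were called lower at a median of -0.52.

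**Figure D3:**
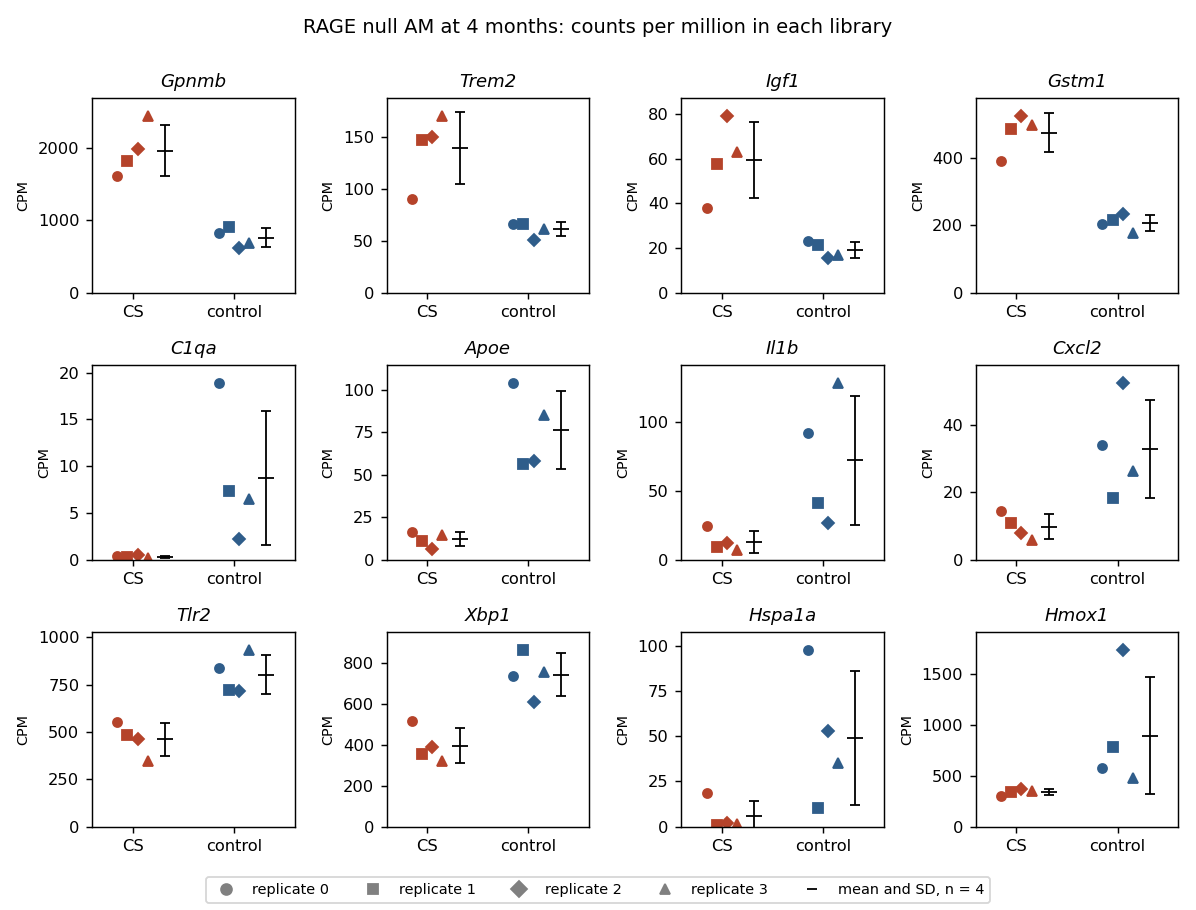
CPM of 12 genes in each of the 4 CS-exposed (left, red) and 4 control (right, blue) RAGE null libraries, with mean and SD (n = 4) in black; the SD bar of Hspa1a is cut at 0. All but Hspa1a are without overlap between the groups, and control replicate 2 is far above the others for Hmox1.

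Immediate early genes fell as well. Of 29 tested, 9 were called lower and none higher (0 higher by DESeq2 and 0 at an unadjusted p under 0.05), with a median of -0.57. The count was 15 without CS-exposed replicate 0, 5 without CS-exposed replicate 2 or 3 or control replicate 3, and 6 without CS-exposed replicate 1. Nr4a3, an orphan nuclear receptor induced by cell stimulation, had 0.674, 1.26, 1.52 and 1.117 CPM in CS-exposed AM, against 9.18, 10.7, 7.89 and 15.3 CPM in control AM. The groups did not come near each other (log2 fold change -3.21, SE 0.33, adjusted p = 2.3e-05 from edgeR). Junb, a subunit of the AP-1 factor, averaged 76.0 ± 29.0 CPM in CS-exposed and 164 ± 19.7 CPM in control AM. Myc, a driver of growth genes, averaged 35.5 ± 9.48 CPM and 75.2 ± 4.73 CPM in the same groups (SD, n = 4 each).

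Chaperones of the endoplasmic reticulum (ER) fell. Of 36 genes of ER chaperones and the unfolded protein response, 9 were called lower, 24 were lower at an unadjusted p under 0.05, and the median was -0.34. Xbp1, the transcription factor of the unfolded protein response, had 518, 356, 388 and 323 CPM in CS-exposed AM, against 736, 868, 610.0 and 759 CPM in control AM. There was no overlap (log2 fold change -0.91, SE 0.13, adjusted p = 0.000347 from edgeR). Hspa5, the ER chaperone BiP, had 1792, 931, 1194 and 847 CPM in CS-exposed AM, against 2518, 1532, 1549.9 and 2242 CPM in control AM, and the groups overlapped through CS-exposed replicate 0. Its call (log2 fold change -0.72) was lost without control replicate 0 or 3 or CS-exposed replicate 1, 2 or 3. The list count was 6 without any of these 5 libraries.

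Cytosolic heat shock genes depended on CS-exposed replicate 0. Hspa1a, an inducible HSP70, had 18.4, 0.733, 1.93 and 1.45 CPM in CS-exposed AM, against 98.3, 10.02, 52.9 and 35.3 CPM in control AM. CS-exposed replicate 0 overlapped the controls, the log2 fold change was -3.19 (SE 0.82, adjusted p = 0.0135 from edgeR), and it was -5.18 without that library. Hspa1a and Hspa1b are near-identical, and reads mapping to both were removed, so each is uncertain. Hsph1, an HSP110 chaperone, had 352, 55.1, 102 and 64.6 CPM in CS-exposed AM, against 489, 126, 171 and 322 CPM in control AM. It was not called (log2 fold change -0.95, SE 0.52, adjusted p = 0.215 from edgeR), while without CS-exposed replicate 0 it was, at -1.90. Of 21 heat shock genes 4 were called lower, 11 without CS-exposed replicate 0, 6 without control replicate 2 and 2 without CS-exposed replicate 1, 2 or 3 or control replicate 0 or 3.

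Few antioxidant genes were called. Of 36 targets of Nrf2, the transcription factor of the antioxidant response, 1 rose and 1 fell, near the 2.84% and 4.43% of all genes, with a median of 0.04, and 10 were higher and 4 lower at an unadjusted p under 0.05. Without CS-exposed replicate 0, 4 were called higher, and without control replicate 1 or 2 or WT CS-exposed replicate 3, 2 were. The call lower was lost without control replicate 2 or CS-exposed replicate 1 or 3, and there were 2 without WT control replicate 1. Gstm1, a glutathione transferase, had 392, 488, 527 and 500.0 CPM in CS-exposed AM, against 203, 217, 235 and 177 CPM in control AM (log2 fold change 1.20, SE 0.15, adjusted p = 0.000113 from edgeR). Hmox1, the heme-degrading oxygenase, had 296, 345, 368 and 347 CPM in CS-exposed AM, against 578, 782, 1743 and 475 CPM in control AM. It was lower with no overlap (log2 fold change -1.40, adjusted p = 0.0221 from edgeR). Without control replicate 2, the highest by far, the log2 fold change was -0.85 and the call was lost (adjusted p = 0.0712), as it was without CS-exposed replicate 1 or 3. Txnrd1, a thioredoxin reductase, averaged 332 ± 83.0 CPM in CS-exposed and 348 ± 79.4 CPM in control AM (SD, n = 4 each), with a log2 fold change of -0.07 (SE 0.21, adjusted p = 0.856 from edgeR). In the 8 genes of the aryl hydrocarbon receptor pathway tested, edgeR and DESeq2 called none, and 4 had an unadjusted p under 0.05.

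**Figure D4:**
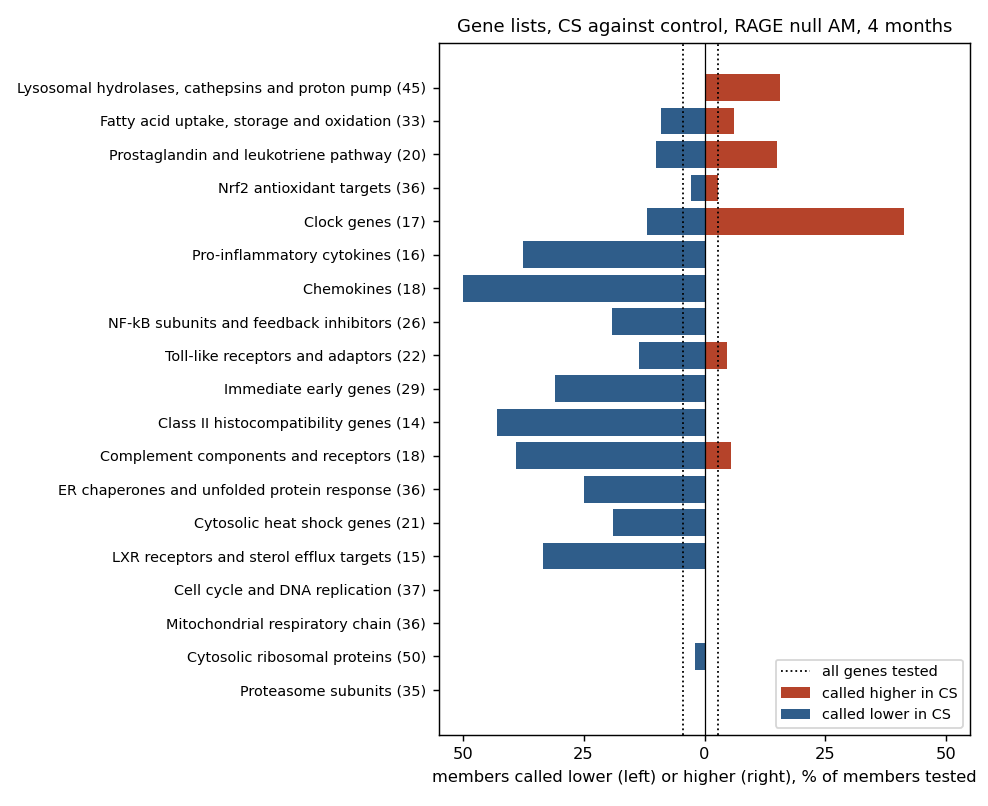
Share of the tested members of 19 gene lists (number tested in brackets) called lower (left, blue) or higher (right, red) in CS-exposed RAGE null AM; dotted lines mark the 4.43% and 2.84% of all genes. Chemokines reach 50% to the left and clock genes 41.2% to the right.

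Prostaglandin genes moved both ways. Hpgds, the hematopoietic prostaglandin D2 synthase, averaged 36.2 ± 13.04 CPM in CS-exposed and 10.6 ± 0.994 CPM in control AM (log2 fold change 1.78, adjusted p = 0.000197 from edgeR, with another listed gene overlapping it). Ptgir, the prostacyclin receptor, averaged 62.6 ± 19.5 CPM and 17.5 ± 10.6 CPM in the same groups, and Hpgd, which inactivates prostaglandins, 2.09 ± 1.15 CPM and 9.37 ± 4.01 CPM (SD, n = 4 each). Of 20 genes of prostaglandins and leukotrienes, 3 rose and 2 fell. Without control replicate 0 or 3 or CS-exposed replicate 1, 1 was called lower.

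Growth factor and matrix genes also split. Of 11 growth factors and EGF family ligands 2 rose (Igf1 and Gdf15) and 4 fell (Areg, Ereg, Hgf and Vegfa). Without control replicate 0 or 3 or CS-exposed replicate 3, 2 were called lower. Igf1, an insulin-like growth factor that macrophages secrete, had 38.1, 57.8, 79.4 and 62.9 CPM in CS-exposed AM, against 23.3, 21.3, 15.7 and 16.7 CPM in control AM. All CS-exposed libraries were above the controls (log2 fold change 1.64, SE 0.24, adjusted p = 0.000347 from edgeR). Gdf15, a stress-induced cytokine, averaged 249 ± 9.09 CPM in CS-exposed and 99.4 ± 22.8 CPM in control AM (SD, n = 4 each). Fn1, the matrix glycoprotein fibronectin, had 1139, 1238, 761 and 1503 CPM in CS-exposed AM, against 2671, 2189, 2164 and 3418 CPM in control AM, a log2 fold change of -1.17 (another listed gene overlaps it). Tgfbr2, a receptor subunit for transforming growth factor beta, rose by 0.68 on the log2 scale. Of 22 genes of that pathway and of matrix, 2 rose (9.09%) and 3 fell (13.6%), against 2.84% and 4.43% of all genes. The count that fell was 6 without control replicate 2 and 5 with DESeq2. Among 13 ligands and partners of RAGE tested, S100a1 rose (log2 fold change 0.87), which is 7.69% of the list. The calcium-binding proteins S100a4 (-2.79) and S100a6 (-2.54) fell, which is 15.4%. Without control replicate 0 there were 2 called higher. S100a6 had 3.03, 8.43, 5.19 and 4.86 CPM in CS-exposed AM, against 55.3, 40.9, 13.9 and 18.4 CPM in control AM.

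Some markers of lung epithelium and blood were called lower in CS-exposed libraries. Of 17 markers of type I cells 9 were called lower, of 15 of type II cells 7, and of 21 of airway cells 6. In 1, 2 and 3 of the markers tested, in that order, all CS-exposed libraries lay below all controls, against 8.51% of all genes. Summed levels for type I cells were 331 to 338 CPM in CS-exposed libraries, which lay within the 256 to 474 CPM of control libraries. For type II cells they were 390 to 408 CPM in CS-exposed and 417 to 622 CPM in control libraries. For airway cells they were 323 to 507 CPM and 612 to 918 CPM in the same order. Neither of these lists overlapped between groups. Of 6 endothelial and fibroblast markers tested, 1 (Vwf) was called higher and 0 lower, with a median of -0.41. The sum of that list went the other way without overlap, at 308 to 385 CPM in CS-exposed and 227 to 269 CPM in control libraries. Sftpc, the surfactant protein of type II cells, had 7.95, 5.39, 8.52 and 9.72 CPM in CS-exposed AM, against 56.3, 28.5, 3.17 and 97.0 CPM in control AM, so control replicate 2 lay below all CS-exposed libraries. Of the markers in the table, 19 of 20 listed for type I, 20 of 22 for type II and 24 of 29 for airway cells, none was at 0 in all 8 libraries. Hbb-bs, a beta globin of red cells, had 4, 0, 17 and 2 counts in CS-exposed and 1971, 44, 25 and 97 counts in control libraries, and its call was lost without control replicate 0 (adjusted p = 0.207 from edgeR) or without CS-exposed replicate 1, 2 or 3. The part of these cells in the other results was not tested.

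Cell cycle genes depended on control replicate 2. Of 37 tested, edgeR called none, DESeq2 called 1 lower, 13 were higher and 2 lower at an unadjusted p under 0.05, and the median log2 fold change was 0.38. The list summed to 1721, 1984, 1775 and 1680.2 CPM in CS-exposed AM and to 1145, 1349, 2149 and 1599 CPM in control AM. Without control replicate 2, which held the highest sum of the 8, 20 members were called higher and 2 lower. Without CS-exposed replicate 0, 1 was called in each direction. In the lists of the respiratory chain (36 genes), ribosomal proteins (50) and the proteasome (35), 0, 1 and 0 members were called by either tool, and at an unadjusted p under 0.05 there were 5, 7 and 5.

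Of 17 clock genes tested, 7 were called higher, 2 lower (Nr1d1 and Nfil3) and 8 not called, with a median of 0.24. At an unadjusted p under 0.05, 9 were higher and 5 lower, and the counts of calls were the same without any single RAGE null library. Cry1, a repressor of the CLOCK and BMAL1 dimer, had 65.7, 55.8, 63.6 and 64.1 CPM in CS-exposed AM, against 20.3, 16.2, 24.7 and 19.1 CPM in control AM (log2 fold change 1.63, SE 0.11, adjusted p = 7.6e-07 from edgeR). Tef, a clock-controlled transcription factor, had 106, 88.9, 86.6 and 101 CPM in CS-exposed AM, against 29.5, 28.8, 17.1 and 13.9 CPM in control AM. Both were far from overlap. Per3, a period gene, rose by 1.87, Per2 by 1.63, Cry2 by 1.84, Dbp by 1.70 and Bhlhe41, a repressor of E-box genes, by 0.96 on the log2 scale. Nr1d1, the nuclear receptor REV-ERB alpha that represses Arntl, had 9.09, 8.53, 7.06 and 5.78 CPM in CS-exposed AM, against 47.1, 50.9, 36.3 and 34.4 CPM in control AM (log2 fold change -2.46, SE 0.22, adjusted p = 6.8e-06 from edgeR). Nr1d1 overlaps Thra, a thyroid hormone receptor on the other strand (chromosome 11, Nr1d1 from 98767932 to 98775333 and Thra from 98740638 to 98769006 of mm10), which fell by 0.80, and their shared reads cannot be told apart. The hour of lavage is not given in the sources used here. Its part in the clock gene values, here and in the differences below, was not tested.

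Clock genes were also where the response differed from that of WT AM. The response of the libraries labelled RAGE null minus that of WT was called in 5 genes of 13045 (0.0383%), and 3 of them are clock genes. Nr1d1 had a difference of -2.93 (adjusted p = 0.000284 from edgeR): in WT AM it had 31.2, 34.6, 21.1 and 48.6 CPM after CS and 29.4, 24.0, 20.9 and 23.8 CPM in controls. Nr1d2, its paralog, had a difference of -1.57 (adjusted p = 0.000284), with log2 fold changes of -0.37 in RAGE null and 1.20 in WT AM. Cry1 had a difference of 0.999 (adjusted p = 0.0136), with 1.63 in RAGE null and 0.63 in WT AM. The other 2 were Nr1h3 (-0.60), which was called higher only in WT AM at 0.82, and Zeb1 (0.88), a transcriptional repressor with 0.21 in RAGE null and -0.67 in WT AM. In WT AM 739 genes were called, 305 higher and 434 lower. Of the genes called in RAGE null AM, 164 were also called higher (44.2% of the RAGE null and 53.8% of the WT list) and 260 also called lower (45.0% and 59.9%). Only Egfem1 (-1.37 in RAGE null and 1.77 in WT AM) and Pabpc1l (1.14 and -1.04) were called in opposite directions, and their differences had adjusted p of 0.0615 and 0.0747 from edgeR. The count of 5 was 74 without control replicate 2, 49 without CS-exposed replicate 0 and 22 without control replicate 1, and 3 without CS-exposed replicate 1, 2 or 3, without WT control replicate 0 or 2, or without WT CS-exposed replicate 1.

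**Figure D5:**
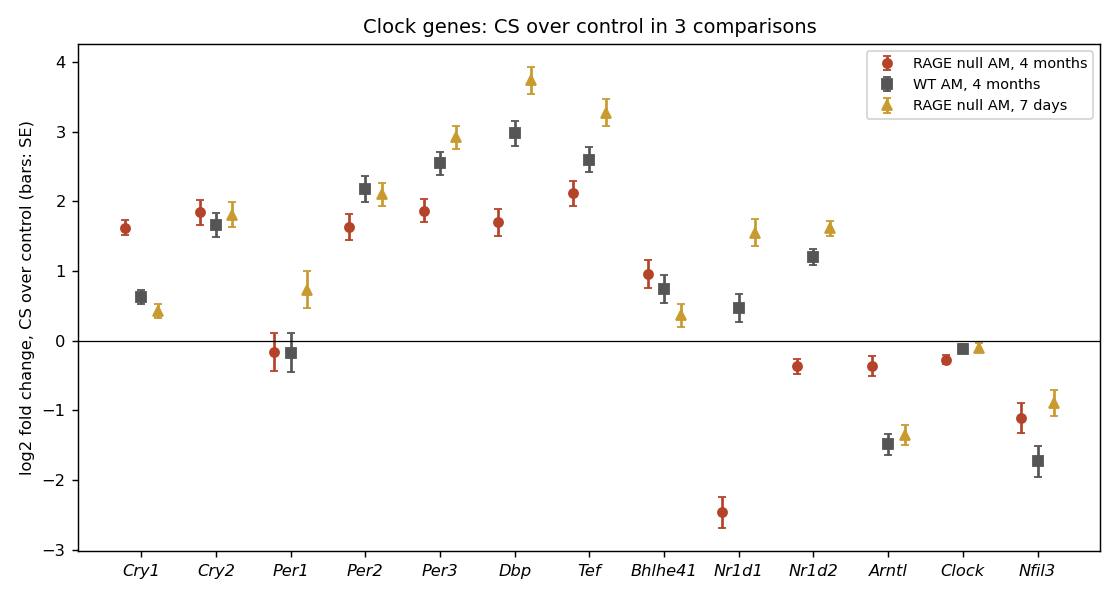
Log2 fold change of CS over control (y, bars are the SE of the fit) of 13 clock genes (x) in RAGE null AM at 4 months (red), WT AM at 4 months (grey) and RAGE null AM at 7 days (yellow). Nr1d1 is at -2.46 in RAGE null AM at 4 months and above 0 in the other comparisons.

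Several genes called in RAGE null AM and not in WT AM did not pass the test of the difference. Il1b had a log2 fold change of -2.49 in RAGE null and -0.87 in WT AM (difference -1.62, adjusted p = 0.342 from edgeR). Tlr2 was at -0.80 and -0.08 (difference -0.72, adjusted p = 0.185), Xbp1 at -0.91 and -0.28 (-0.62, 0.219), and Cxcl1 at -1.56 and 0.36 (-1.92, 0.199). Whether these responses differ between the genotypes was therefore not shown by these libraries. C1qa (-4.73 and -3.80), Gpnmb (1.37 and 1.08), Gstm1 (1.20 and 1.07), Siglecf (-0.88 and -0.90) and Nr4a3 (-3.21 and -3.01) were called in the same direction in both genotypes.

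Much of the 4-month response was not called at 7 days in RAGE null AM. In a fit of all 31 libraries 67 genes were called for 7 days of CS, of which 62 were tested at 4 months and 36 of these were called the same way (58.1% of the 7-day and 3.79% of the 4-month list). They include the clock genes Per2, Per3, Cry2, Dbp, Tef and Nfil3, the dendritic cell markers Ccr7, Ccl17, Ccl5 and Flt3, and Siglecf and Nr4a3. The 4-month response minus the 7-day response was called in 250 of 13408 genes (1.86%), 110 higher and 140 lower. Of the 4-month libraries, leaving out CS-exposed replicate 0 gave 469, CS-exposed replicate 2 gave 122, CS-exposed replicate 3 gave 92, control replicate 2 gave 385 and control replicate 3 gave 129. Of the 7-day libraries, leaving out CS-exposed replicate 2 gave 166, CS-exposed replicate 3 gave 160 and control replicate 1 gave 125. Nr1d1 was among them, at -4.01 (adjusted p = 8.4e-10 from edgeR): at 7 days it was higher after CS, with 66.3, 40.8, 49.7 and 40.3 CPM in CS-exposed and 14.8, 16.9, 17.7 and 17.9 CPM in control RAGE null AM. Gpnmb (1.37 at 4 months and 0.17 at 7 days, adjusted p of the difference 0.0022), Bcam, a laminin receptor (2.41 and -0.31, 4.1e-05), and Apoe (-2.66 and -0.48, 0.0046) are other genes whose responses differed. The 2 times used different mice of a like age at the start, so those of 4 months were older at lavage. The length of exposure, age and the set of mice therefore cannot be told apart.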

How the data were processed

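Alveolar macrophage RNA of 31 libraries was sequenced single-end after oligo dT selection. The authors aligned reads to mm10 with Novoalign, removed reads with several mapping positions, counted reads per gene with USeq and deposited 1 table of raw counts; whether strand was used is not given in the sources used here. The deposited FPKM columns, and the log2 ratio and FDR score columns of the authors' own comparisons, were not used. Of 13522 lines 1 is empty, and 13521 genes remain, of which 12993 were matched to a symbol and 4375 overlap another listed gene; the largest count of each gene is at least 20. Total counts of the RAGE null libraries of 4 months were 13458715 to 19674017.

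Counts were tested in R 4.3.3 with edgeR 4.0.16 (filterByExpr with a minimum count of 10 and a minimum total of 15, TMM scaling, quasi-likelihood F test, Benjamini-Hochberg adjustment over all genes tested). One fit held the 16 libraries of 4 months (13045 genes) and gave the CS response in each genotype and their difference. A fit of all 31 libraries (13408 genes) gave the difference between 4 months and 7 days. Calls needed an adjusted p under 0.05 together with a change of 1.5-fold or more. The test was run on simulated data first. CPM are counts divided by the TMM-scaled library size, and 7-day CPM use the scaling of all 31 libraries. At 4 months the study's methods give as many mice as there are libraries, so each library was taken as 1 mouse. Alternatives were DESeq2 1.42.0, DESeq2 size factors in edgeR, other filters, no fold threshold, other sets of libraries, a replicate block, and leaving out each library in turn. Promoters were taken from RefSeq (GRCm38.p6), and figures were drawn with matplotlib 3.10.9.

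The comparison, its gene lists and the genes named were chosen with earlier results of these data known. Named genes come from the 15 called genes with the largest increase and the 15 with the largest decrease (mean log2 CPM of at least 1, groups without overlap), the 4 members of each list with the smallest p, Ager, Txnrd1, Hsph1 and Tnf, and the 8 called genes with the smallest p in each difference. Areg, Arl4c, Arntl, C2, Cd209a, Cd14, Cd63, Chil3, Colec12, Cry2, Ctsk, Cxcl1, Cxcl2, Cxcl3, Egfem1, Ereg, Fabp1, Flt3, Hspa5, Itgax, Nfil3, Nfkbia, Pabpc1l, Per2, Pparg, Psap, Sftpc, Tfeb, Tlr13, Trem1, Trem3 and Vegfa lie outside that rule and were chosen after their values were seen. Fads1, H2-Aa, H2-Ab1, H2-Eb1, H2-Ob, Cd40 and Cd74 lie outside it as well and were also chosen after their values were seen. The rule selects 185 genes, and many of them are not described.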

Additional observations from a re-analysis of the deposited data

Results flagged for a closer look

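In 14 of 200 groups of 4 libraries 1 library lay far from the other 3; chance alone gives about 1 in 20. CS-exposed replicate 0 was the highest for Hspa1a (18.4 CPM), Hspa1b (39.1), Hsph1 (352), Csrnp1 (35.4), Elovl6 (16.4) and P2ry10 (2.16), and the lowest for Tfeb (64.1 CPM). CS-exposed replicate 1 was the highest for S100a4 (6.91 CPM). CS-exposed replicate 3 was the lowest for Krt19 (483 CPM) and the highest for Cd3e (0.0657 CPM, 1 count). Control replicate 2 was the highest for Adgrg1 (21.7 CPM) and Cxcl3 (20.6 CPM), and control replicate 0 for Hba-a1 (38.5 CPM) and Hbb-bs (145 CPM).

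The CS response differed between RAGE null and WT AM, by the test of the difference, in Nr1d1 (RAGE null minus WT, log2 -2.93), Nr1d2 (-1.57), Nr1h3 (-0.60), Cry1 (0.999) and Zeb1 (0.88).

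The response of RAGE null AM differed between 4 months and 7 days (log2, 4 months minus 7 days, by the test of the difference) in 43 of the genes reported. Here an adjusted p under 0.05 was enough, without the fold threshold of the calls, and Psap and Stat2 lay under that threshold. Among genes of lysosome, lipid and growth it was higher at 4 months for Plin4 (4.26), Awat1 (2.98), Bcam (2.73), Ahnak2 (1.93), Hpgds (1.68), Igf1 (1.33), Gpnmb (1.21), Rufy4 (1.003), Trem2 (0.96), S100a1 (0.95), Ctsd (0.71), Tgfbr2 (0.60) and Psap (0.57), and lower for Apoe (-2.17), Elovl6 (-1.96) and Abca1 (-1.05). Among immune genes it was lower for C1qb (-3.55), C1qc (-3.36), Cxcl3 (-3.24), Cxcl2 (-2.95), Stat4 (-2.85), Timd4 (-2.47), Cxcl1 (-2.42), Tnf (-1.55), Tnfaip3 (-1.31), C3 (-1.03), Tlr2 (-0.71), Tlr4 (-0.69) and Stat2 (-0.58). Among stress and early genes it was lower for Hspa1a (-4.26), Junb (-1.10), Csrnp1 (-0.89) and Xbp1 (-0.72). The clock genes were Nr1d1 (-4.01), Dbp (-2.03), Nr1d2 (-1.98), Tef (-1.15), Per3 (-1.04), Cry1 (1.21) and Arntl (0.997), with Thra, which overlaps Nr1d1, at -1.09. Adra2a, an adrenergic receptor, was at -2.91 and Akap5, a kinase anchor, at -1.17.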

How the results depend on the processing

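Of 99 genes whose values were followed, 86 were called and 70 of these were called under every alternative that tested them; 7 of the 13 not called were called under at least 1. The direction changed only for Txnrd1, whose log2 fold change of -0.07 was 0.09 without control replicate 2 or CS-exposed replicate 0 and ranged from -0.19 to 0.0925 on leaving out 1 library.

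Against 949 genes called (371 higher, 578 lower), requiring at least 20 counts in every sample gave 582 (282 and 300), the 8 libraries alone 596 (259 and 337), and no fold threshold 2606 (1240 and 1366). An alternative chosen after seeing the data, without both control replicate 2 and CS-exposed replicate 0, gave 1563 (670 and 893), and Txnrd1 was then at 0.25. Leaving out 1 library gave 746 to 1294 (284 to 526 and 462 to 768). The 5 genes that differed between genotypes became 65 with DESeq2, 31 in a fit of all 31 libraries, 8 without a fold threshold, 489 without both libraries, and 3 to 74 on leaving out 1 library. The 250 that differed between times became 356 with DESeq2, 371 without a fold threshold, 188 with at least 20 counts in every sample, 110 in the 16 RAGE null libraries, and 92 to 469 on leaving out 1 library. The causes were not tested.

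Replicate numbers did not pair the samples (correlations of deviations between same-numbered CS-exposed and control RAGE null libraries of 0.159, -0.0811, 0.0565 and -0.0495). With a replicate block 951 genes were called, 385 higher and 566 lower, 4 differed between genotypes and 224 between times. With at least 20 counts in every sample, which leaves fewer genes tested, the members called lower were 2 (against 9 without that filter) for chemokines, 3 (6) for cytokines, 2 (12) for dendritic, 5 (8) for monocyte, 0 (5) for lymphocyte, 1 (9) for type I, 1 (7) for type II and 2 (6) for airway markers, 3 (7) for complement and 3 (7) for scavenger receptors. In the 8 libraries alone 2 type I, 1 type II, 2 airway and 1 lymphocyte marker, 4 ER chaperones and 0 heat shock genes were called lower. The replicate block gave 3 interferon-stimulated genes lower.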
